A study of Mus musculus with 2 samples.

Results

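Read clusters within introns are stretches of the mouse genome where sequenced fragments of non-polyadenylated (NPA) RNA pile up inside a gene, on its strand, but outside every annotated exon. They were chosen by their read counts and positions. The reads of both libraries were pooled, same-strand reads overlapping by 1 base or more were joined, and a cluster was kept when it held 10 or more reads, overlapped no exon of any GENCODE M1 gene on its strand and lay within a gene body on that strand. Of 961373 clusters of any size, 96817 held 10 or more reads, 9097 of these overlapped no exon on their strand, and 3590 of those lay within a gene body. These 3590 intronic clusters are described here, and the other 5507 clusters outside exons lay outside gene bodies.

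The study compared the NPA RNA of mouse embryonic stem cells (ESCs) with that of neuronal progenitor cells (NPCs) made from them. The ESCs were of the R1 line at passage 18 and grew with leukemia inhibitory factor on a feeder layer of mitotically inactivated mouse embryonic fibroblasts, so feeder RNA may be present. The NPCs were the same R1 cells after 4 days as embryoid bodies without that factor and a further period on poly-L-ornithine and fibronectin in medium with insulin, transferrin and selenium, and they were gathered on day 7. Each cell type gave 1 library, depleted of poly(A) RNA and ribosomal RNA and read from the RNA strand, with 4271306 read positions for ESCs and 4399729 for NPCs, so every ratio compares 2 libraries and has no replicate check.

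Introns are cut out of the primary transcript as lariats and are usually degraded quickly, and RNA that escapes this decay is often a processed small RNA, such as a small nucleolar RNA (snoRNA), or part of an intron that remained in the transcript. C/D box snoRNAs guide methylation and H/ACA box snoRNAs guide pseudouridylation of other RNAs, and most mammalian ones lie in introns of their host genes. Introns also hold processed pseudogenes, which are reverse-transcribed copies of spliced mRNAs of other genes, and a read of such a sequence can be placed in the copy, in the parent gene or in either.

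The sequences below are shown because they carry the results that follow, namely clusters in which a single position held the majority of the read starts. Each line gives 10 bases before the most used start and 120 bases from it, 5′ to 3′ on the RNA strand of mm9, with the 48 bases covered by a read from that start in capitals.
Rpl23, chr11:97641462-97641591, minus strand: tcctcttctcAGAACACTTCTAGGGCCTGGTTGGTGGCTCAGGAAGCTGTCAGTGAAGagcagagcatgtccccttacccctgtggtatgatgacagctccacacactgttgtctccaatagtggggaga
Rbm19, chr5:120597695-120597824, plus strand: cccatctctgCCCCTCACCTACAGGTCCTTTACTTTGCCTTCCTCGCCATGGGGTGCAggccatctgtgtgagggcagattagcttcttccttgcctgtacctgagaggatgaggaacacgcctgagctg
Mrps5, chr2:127416781-127416910, plus strand: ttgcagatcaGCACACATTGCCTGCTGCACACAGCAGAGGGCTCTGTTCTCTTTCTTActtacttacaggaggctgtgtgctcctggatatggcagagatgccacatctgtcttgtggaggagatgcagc
Hspg2, chr4:137030175-137030304, plus strand: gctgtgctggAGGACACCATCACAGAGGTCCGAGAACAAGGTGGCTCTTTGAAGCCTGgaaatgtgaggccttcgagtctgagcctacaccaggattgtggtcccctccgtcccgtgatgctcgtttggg
Rian, chr12:110881041-110881170, plus strand: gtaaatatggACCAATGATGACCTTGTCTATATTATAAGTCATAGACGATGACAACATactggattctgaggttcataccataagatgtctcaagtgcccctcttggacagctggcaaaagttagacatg
Drosha, chr15:12845299-12845428, plus strand: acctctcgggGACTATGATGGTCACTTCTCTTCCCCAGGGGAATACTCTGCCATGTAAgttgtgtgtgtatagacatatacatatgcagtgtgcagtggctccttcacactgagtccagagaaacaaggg
Lamb1, chr12:32007973-32008102, plus strand: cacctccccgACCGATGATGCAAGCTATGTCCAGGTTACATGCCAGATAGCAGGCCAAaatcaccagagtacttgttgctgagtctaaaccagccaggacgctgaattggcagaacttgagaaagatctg
Tnpo2, chr8:87577481-87577610, plus strand: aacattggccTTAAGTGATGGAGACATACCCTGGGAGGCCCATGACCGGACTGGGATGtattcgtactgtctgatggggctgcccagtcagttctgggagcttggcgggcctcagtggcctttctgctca
Ptpn13, chr5:104004269-104004398, plus strand: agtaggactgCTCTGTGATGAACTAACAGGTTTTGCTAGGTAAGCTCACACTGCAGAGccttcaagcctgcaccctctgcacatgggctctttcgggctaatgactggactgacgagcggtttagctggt
The next line is shown as an example of copied sequence, from an intron of *Slc22a29*, where the bases match the mRNA of *Eef1a1*, a translation elongation factor.
Slc22a29, chr19:8331724-8331853, minus strand: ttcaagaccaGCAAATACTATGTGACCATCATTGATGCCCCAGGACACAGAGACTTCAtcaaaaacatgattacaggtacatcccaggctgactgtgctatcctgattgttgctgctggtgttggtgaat

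The libraries were checked against marker genes of the labelled cell types, counted over exons. Of 11 pluripotency markers, 10 were higher in ESCs, with a median log2 NPC/ESC ratio of -1.80. Of the 9 neural progenitor markers found in the annotation 8 were higher in NPCs, with 286 reads in ESCs and 511 in NPCs in all and a median log2 ratio of 1.54. *Cdh2* had 8 and 156 reads and *Zic1* 1 and 22, *Tubb3* went the other way with 109 and 87, and *Pax6*, *Sox3*, *Fabp7* and *Hes5* had 2 to 12 reads in NPCs. All 12 markers of extraembryonic endoderm were higher in NPCs, with 3449 reads in ESCs against 67907 in NPCs and a median log2 ratio of 4.70. The level of the endoderm markers goes against the label of neuronal progenitors, several of whose markers had few reads, and NPC is used here as the name of the library only. The 6 fibroblast markers, which feeder cells express, had 182 and 260 reads. In bulk RNA, fewer cells of a type and less RNA per cell cannot be told apart.

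The intronic clusters held 48891 ESC reads, or 1.14% of the library (exact 95% interval 1.13 to 1.15%), and 49070 NPC reads, or 1.12% (1.11 to 1.13%). Intervals cover counting error only, since reads without molecular identifiers may be PCR copies of 1 fragment. The clusters were of 3 kinds, which were defined after the data had been seen and which differ in what their reads can say about an intron. Single-copy clusters, of which there were 2559 (71.3%), had 50% or more of their full-length reads on 48 bases that occur once in mm9 and no match to a spliced transcript of another gene. Clusters of copied sequence numbered 633 (17.6%), and in these most reads fit several places in the genome or the cluster matched the mRNA of another gene. In the remaining 398 (11.1%) fewer than 50% of the deposited intervals had the full 48 bases, and these are called trimmed. The label of an intronic cluster thus holds for its position, while the reads of copied sequence may come from elsewhere.

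The weight of the 3 kinds differed between numbers of clusters and numbers of reads. Single-copy clusters held 24414 ESC reads and 23738 NPC reads, 49.2% of all reads in intronic clusters. Clusters of copied sequence were far fewer but held 18997 and 20728 reads, or 40.6%, with a median of 23 reads per cluster against 13 for single-copy ones. Only 440 reads lay on the opposite strand of the clusters, 0.447% of the reads on both strands.

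**Figure D1:**
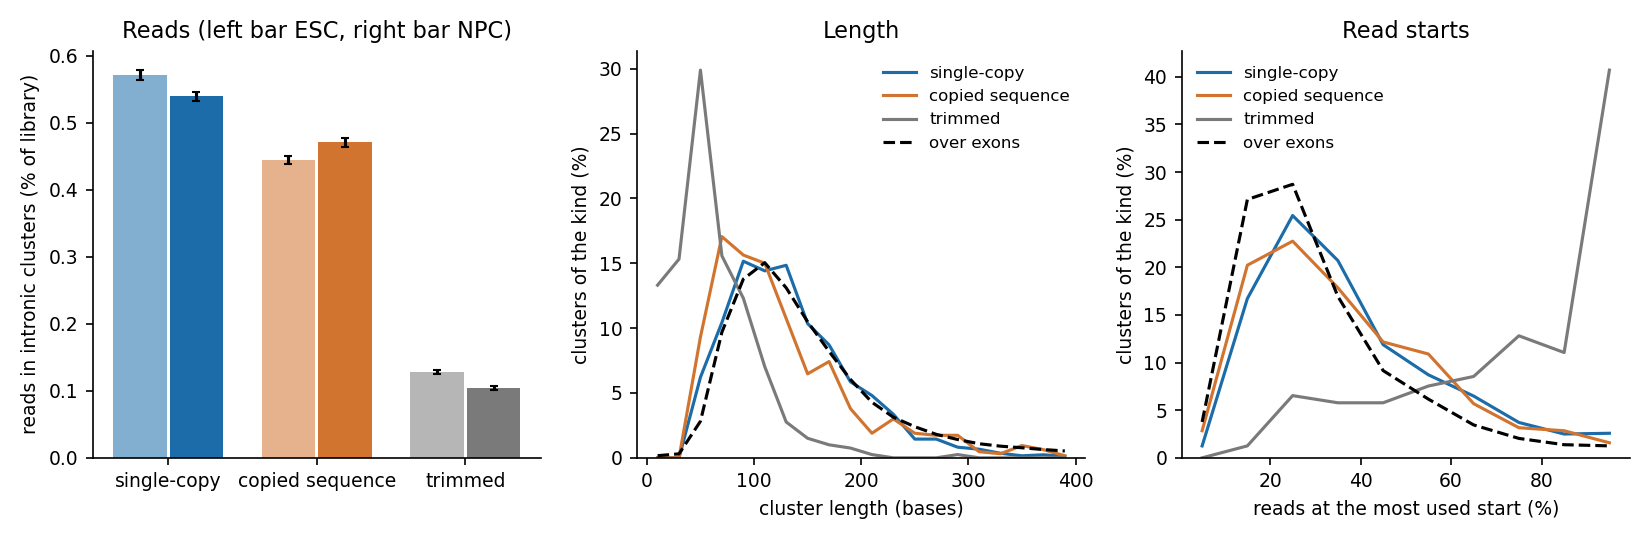
Reads, length and read starts of the 3 kinds of intronic cluster. The bars give the share of each library in percent (left bar ESC, right bar NPC, error bars exact 95% intervals), and the lines give the distribution of cluster length in bases and of the share of reads at the most used start, beside clusters over exons (dashed). Single-copy clusters took 0.572% of the ESC and 0.540% of the NPC library, and trimmed clusters stand apart as short and with most reads at 1 position.

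The threshold of 10 reads fell where clusters are many. Exactly 10 reads were found in 674 intronic clusters, which had a median length of 98 bases and 37.1% with 50% or more of their reads at 1 start, while the 951 clusters with 9 reads that were left out had a median of 97 bases and 31.0%. Both sides of the threshold thus hold short clusters of much the same form. Because the threshold used pooled reads, a cluster with few reads in 1 library passed it through the other. Counts beyond 2-fold within a host or an intron are therefore partly fixed by the choice.

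Intronic clusters were short. Their median length was 114.5 bases, the middle 50% lay between 80 and 160 bases, and the range was 1 to 1052, against a median of 132 bases for the 87720 clusters over annotated exons. Single-copy clusters had a median of 124 bases and clusters of copied sequence 111. Trimmed clusters had a median of 52, and 174 of them were shorter than a read, as were the 3 bases in intron 2 of *Sltm* with 200 ESC and 67 NPC reads. The longest clusters were 1052 and 660 bases in intron 1 of *Zc3h11a*, 598 bases in the last intron of *Nupl1* and 577 bases in intron 15 of *Ppp2r5c*.

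The clusters lay in 1438 host genes and 2088 introns. Protein-coding genes hosted 3405 clusters in 1380 genes, and the rest lay in 34 lincRNA genes (125 clusters), 15 genes of processed transcripts (40) and 9 pseudogenes (20). Single clusters were the rule, since 820 hosts had only 1, while the 58 hosts with 10 or more held 838 clusters. Clusters in 1 intron may come from the same RNA and so may not be independent of each other, which was not tested. In all, 82 clusters lay in the body of more than 1 gene. The first intron held 23.7% of the clusters, near its 23.1% share of the intron bases of the hosts.

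In lists of genes whose products work on RNA, the share of hosts was above that of all genes. Of 12098 protein-coding genes with introns and 10 or more exon reads, 1290 (10.7%) hosted a cluster, and of the 5464 with 200 or more exon reads 1091 did (19.97%). Genes for hnRNP, SR and snRNP proteins, which package and splice pre-mRNA, were hosts in 24 of 47 cases (51.1%). Ribosomal protein genes were hosts in 40 of 90 cases (44.4%) and genes with an annotated snoRNA in an intron in 96 of 233 (41.2%), while translation factor genes were hosts in 20 of 64 (31.3%). These genes also had more exon reads, with medians of 652 for the splicing list and 724.5 for the ribosomal list against 168 for all genes, and the part of read depth in the shares was not tested.

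Of the 10 snoRNP and nucleolar proteins, 4 were hosts, and 2 of these carried most of the clusters. *Nop58*, a core protein of C/D box snoRNPs, had 18 clusters with 192 ESC and 114 NPC reads, although its exons had 341 and 737. *Npm1*, the nucleolar chaperone nucleophosmin, had 16 clusters with 202 and 200 reads. *Ncl* and *Dkc1*, the pseudouridine synthase of H/ACA snoRNPs, had 2 and 1 clusters, and the one in *Dkc1* had 15 ESC reads and 2 NPC reads.

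Clusters of the ribosomal and splicing lists had like medians between the libraries, while the exons of their hosts stood apart, a difference that was not tested. Clusters in ribosomal protein genes had a median log2 NPC/ESC ratio of -0.24 (binomial 95% interval -0.53 to -0.04), with 5 of 95 more than 2-fold higher in NPCs and 20 more than 2-fold higher in ESCs, and the exons of these hosts had a median of -0.53. Clusters in splicing genes had a median of -0.22 (-0.33 to 0.28), with 17 of 116 higher in NPCs and 19 higher in ESCs, beside exons at a median of 0.74. For hosts of annotated snoRNAs the 332 clusters had a median of -0.04, with 43 higher in NPCs and 63 higher in ESCs. Translation factor genes, with 49 clusters, had a median of 0.15 (-0.27 to 0.44), 8 higher in NPCs and 6 higher in ESCs. Across all 96817 clusters 29.3% were more than 2-fold higher in NPCs and 10.7% more than 2-fold higher in ESCs, and these shares are the background for all such counts.

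Most clusters were islands in a longer intron, but some introns were read nearly throughout. Of the 1599 introns with a single-copy cluster, 415 (26.0%) were covered by reads of either library over 50% or more of their bases, and 31 over 80% or more. The well covered introns were short, with a median of 989 bases against 2395.5 for the others. *Rbm15*, a partner of the m6A methyltransferase, has an intron of 3910 bases of which 77.8% was covered, and its 13 clusters held 279 ESC and 320 NPC reads, with no cluster more than 2-fold higher in either library. In intron 1 of *Tra2b*, a splicing regulator, reads covered 54.0% of the 6118 bases, and its 15 clusters held 216 and 184 reads. In intron 3 of *Ankrd10* reads covered 64.3% of 9141 bases, and its 16 clusters held 153 and 118. Covered shares count all reads in the intron, including those outside the clusters.

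Of the 15 introns with the most clusters, intron 1 of the zinc finger gene *Zc3h11a* (chr1:135550610-135557813, minus strand) was the best covered, at 82.9% of its 7204 bases. Its 21 clusters, all single-copy, held 769 ESC and 1203 NPC reads, an NPC/ESC ratio of 1.52 (counting interval 1.39 to 1.66). RefSeq places the start of *Zbed6*, an intronless gene for a transcription factor derived from a transposase, 352 bases into this intron, which the GENCODE M1 exons used here do not hold. Only 1 cluster ended before that start and 19 began after it. Of the 3590 intronic clusters, the one over this start, of 405 bases (chr1:135557060-135557464), was the only one found to hold a RefSeq gene start out of 32851 searched.

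**Figure D2:**
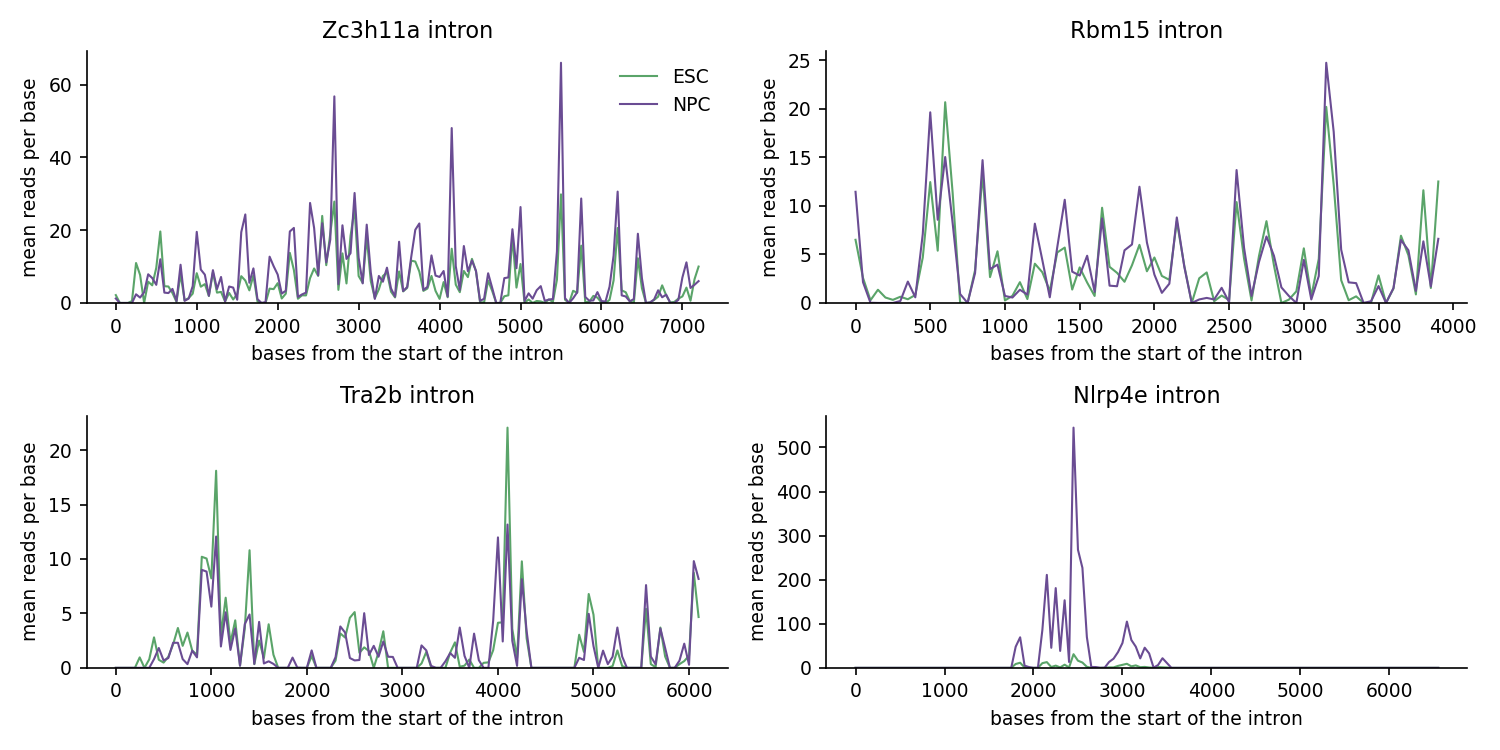
Mean reads per base in windows of 50 bases along 4 introns, from the start of the intron in the direction of transcription, for ESCs (green) and NPCs (purple). In *Zc3h11a* and *Rbm15* the reads run along most of the intron in both libraries, and in *Tra2b* they are patchy, with empty stretches between. In *Nlrp4e* they form 1 block that is high in NPCs.

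The intron with the most clusters was long and less covered. Intron 13 of *Sfmbt2*, a Polycomb group gene, had 26 clusters in 62472 bases, of which 29.0% was covered, with 340 ESC and 517 NPC reads. Of these clusters 21 were more than 2-fold higher in NPCs and none in ESCs, 8 were single-copy and 13 trimmed, and the exons of the gene stood at 288 and 1658 reads. A single one of them, of 85 bases with 240 of its 456 reads at 1 start, had 247 ESC and 209 NPC reads and so went with neither the other clusters nor the exons. None of the 3590 intronic clusters held a whole miRNA hairpin out of 997 from RefSeq. Clusters over miRNA genes annotated in GENCODE M1 had been left out by the rule, so this search could find few.

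*Macf1* gave a similarly one-sided intron. Intron 61 of its 106 introns held 15 clusters with 59 ESC and 373 NPC reads, 14 of them more than 2-fold higher in NPCs, an NPC/ESC ratio of 6.14 (4.65 to 8.22). The exons of the gene, which encodes a linker of microtubules and actin, had 2202 and 2594 reads. *Phf17* had 27 clusters in 8 introns with 144 and 308 reads, and the non-coding gene 6720401G13Rik had 23 with 189 and 303. *Pkm2*, the pyruvate kinase gene of proliferating cells, had 23 clusters with 142 and 156 reads against 11368 and 4275 over its exons, while *Dhx9*, an RNA helicase gene, had 19 clusters with 176 and 192 reads against 382 and 1993 over its exons.

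Few of the clusters that the rule kept lay next to a splice site. Intronic reads that overlap a read on an exon join it, and such a cluster is dropped. Clusters close to exons are therefore undercounted, by an amount that was not measured. A gap of 50 bases or less to a host exon was found for 196 of 3590 clusters, or 5.46% (4.74 to 6.25%), of which 137 lay after a 5′ splice site, 65 before a 3′ splice site and 6 at both. Bases this close to an exon make up 1.90% of the intron bases of the hosts and 0.683% of the introns that hold a cluster, since long introns dominate those sums. Single-copy clusters lay next to a splice site in 181 cases (7.07%), 130 at the 5′ and 56 at the 3′ splice site, against 1.31% of the bases of their introns. Clusters of copied sequence did so in 6 cases (0.948%), and their introns were long, with a median of 28264 bases against 2390 for single-copy clusters.

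The 5′ side was thus the more frequent neighbour. The median single-copy cluster lay 772 bases from the 5′ splice site and 1105 bases from the 3′ splice site. These distances hold for the clusters kept, since the rule drops those joined to exon reads. Single-copy clusters at splice sites lay in shorter introns, with a median of 881 bases, and had a median log2 ratio of 0.13 (-0.04 to 0.37). An AG before the cluster together with a GT after it, the letters that flank an internal exon, was found at 11 clusters (0.306%) and at 0.444% of all clusters.

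Reads in intronic clusters shared their start positions more often than reads elsewhere. In 1088 clusters, or 30.3% (28.8 to 31.8%), 50% or more of the reads began at the same base, against 15.6% of all 96817 clusters and 14.3% of those over exons. The trimmed clusters weighed in this count, with 80.7% of them, but single-copy clusters stood at 23.99% (22.4 to 25.7%) and copied ones at 24.2%.

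Among single-copy clusters with 30 or more reads, a set chosen after the starts had been seen, 54 of 230 (23.5%) had 50% or more of their reads at 1 start, while 12.1% of all clusters of that depth did. The 54 clusters lay in 51 hosts, had a median length of 93 bases and held 3643 ESC and 1820 NPC reads. In 38 of the 39 with 10 or more reads in each library, both libraries had the same most used start. The clusters were chosen for a shared start in the pooled reads, which makes such a match likely in advance. The library protocol cut RNA with RNase III before adaptors were joined to it, so a read start is either an end of the RNA or a cut, and these were not told apart.

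**Figure D3:**
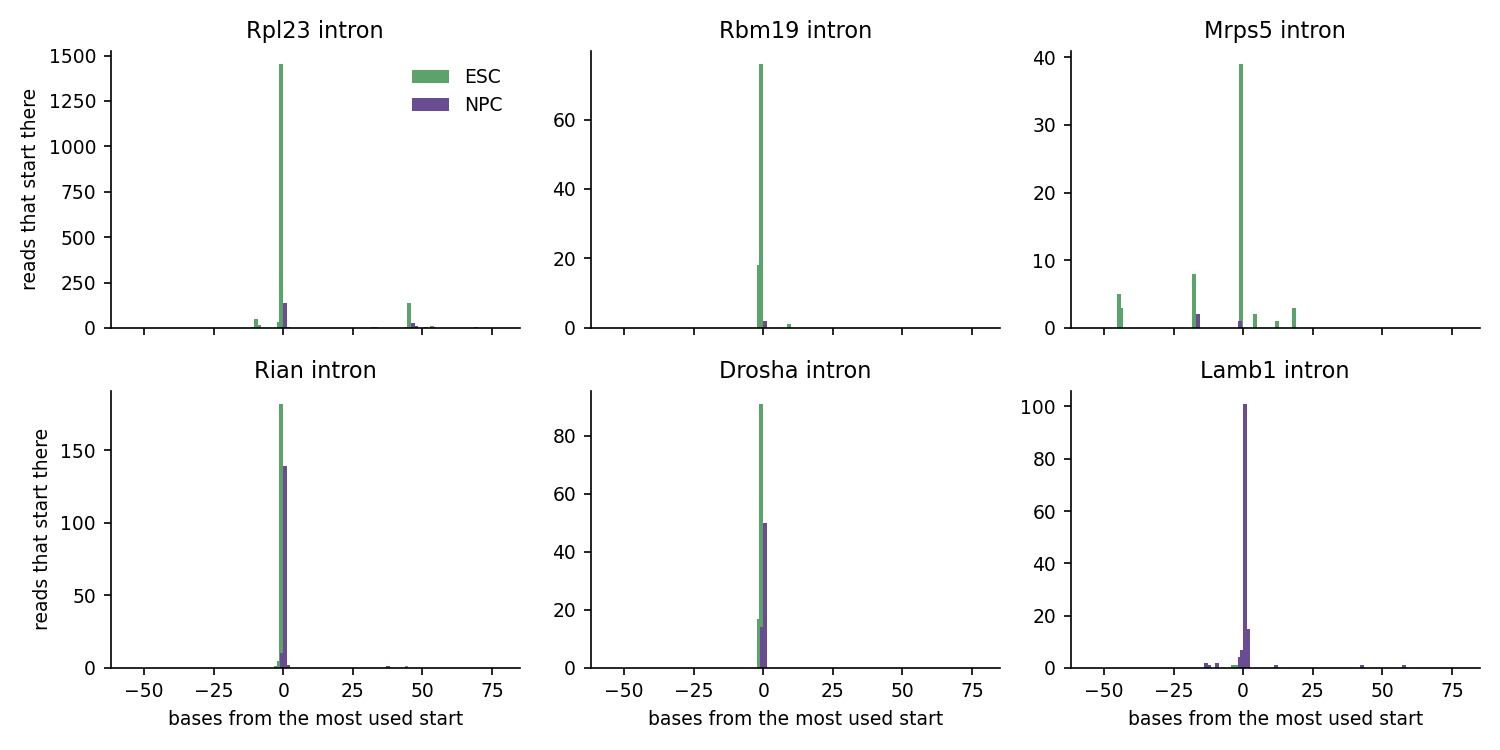
Number of reads that start at each base around the most used start of 6 single-copy clusters, with ESC bars (green) drawn to the left of NPC bars (purple). The main peak held 81.5% of the reads in *Rpl23*, 93.9% in *Rian* and 39 of 65 reads in *Mrps5*, with smaller groups of starts beside it such as 137 ESC and 25 NPC reads 46 bases on in *Rpl23*, and the higher library is the ESC one in the upper row and the NPC one in *Lamb1*.

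The most abundant of them was in intron 2 of *Rpl23*, a gene for a protein of the large ribosomal subunit. The cluster covered 128 bases (chr11:97641464-97641591) with 1763 ESC reads and 190 NPC reads, and 1591 of these 1953 reads began at 1 base. Scaled to library size, the ESC/NPC ratio was 9.56 (8.23 to 11.2), while the exons of *Rpl23* had 729 and 617 reads. It lay 1056 bases after the exon before it and 1514 bases ahead of the exon after it, and the nearest annotated snoRNA was 1361 bases away.

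Other single clusters higher in ESCs were smaller. In intron 21 of *Rbm19*, whose product works in ribosome biogenesis, a cluster of 59 bases had 95 ESC reads and 2 NPC reads, an ESC/NPC ratio of 48.9 with a wide counting interval of 13.2 to 410, beside exon reads of 56 and 147. Of the 97 reads 78 began at 1 base, and the ESC reads had 3 starts in all. PCR copies of a few fragments could not be told apart from many fragments, and the interval takes every read as separate. In intron 3 of *Mrps5*, a gene of the small mitochondrial ribosomal subunit, the reads were 62 and 3 (ratio 21.3, 6.95 to 106), with 39 of the 65 at 1 start. The first intron of *Hspg2*, which encodes the basement membrane proteoglycan perlecan, held a cluster with 60 and 15 reads (ratio 4.12, 2.31 to 7.81) and 97.3% of them at 1 start. *Mcl1*, an anti-apoptotic gene, differed from these in having 145 and 42 reads (ratio 3.56, 2.51 to 5.14) spread over 65 starts and 457 bases of its last intron.

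A cluster in 2310003C23Rik had 48 and 5 reads (ratio 9.89, 3.96 to 31.8). Toward NPCs the highest ratio among single-copy clusters with 50 or more reads was that in intron 26 of *Lamb1*, the laminin beta 1 chain gene, with 10 ESC and 135 NPC reads and 103 of the 145 at 1 start. The NPC/ESC ratio was 13.1 (6.91 to 28.0), and the exons of *Lamb1* had 585 and 10367 reads. In intron 38 of *Ptpn13*, a tyrosine phosphatase gene, a cluster of 51 bases had 13 and 61 reads (ratio 4.56, 2.48 to 9.04). A cluster in intron 61 of *Macf1* had 4 and 50 reads (ratio 12.1, 4.45 to 46.3), and one in intron 1 of the lincRNA gene *Tug1* had 16 and 73 (ratio 4.43, 2.55 to 8.15), both with many starts.

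Some of the 54 clusters with a shared start differed by less than 2-fold, such as those in *Rian*, *Drosha* and *Tnpo2*. Only read starts were used to choose the set, and the other end of the RNA was not measured. The cluster in *Rian*, an imprinted non-coding gene whose introns are known to host C/D box snoRNAs, had 190 ESC and 152 NPC reads (ESC/NPC ratio 1.29, 1.03 to 1.60). The one in *Drosha*, the RNase that releases miRNA hairpins, had 108 and 64 (1.74, 1.26 to 2.41), beside exon reads of 327 and 543. The one in *Tnpo2*, a nuclear import receptor gene, had 54 and 63 (NPC/ESC ratio 1.13, 0.775 to 1.66). Over the 54 clusters, 10 (18.5%) were more than 2-fold higher in NPCs and 15 (27.8%) in ESCs, against 28.8% and 12.5% of the 4677 clusters of the whole table with the same depth and form. The counting interval of the ratio lay wholly beyond 2-fold toward ESCs for 8 of the 54 and toward NPCs for 5.

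The printed sequences were searched for letters of known small RNAs, on the RNA strand only. The letters TGATGA from 5 bases before to 20 bases after the most used start together with CTGA from 40 to 150 bases after it, the letters of C and D boxes, were present in 37 intronic clusters, or 1.03% (0.727 to 1.42%). The same windows held them in 0.885% of all clusters and in 73.1% of 346 annotated C/D snoRNA genes, so over all intronic clusters the share is that of the background. Among the 54 clusters with a shared start the windows of 4 held them (7.41%), in *Rian*, *Ptpn13*, *Alms1* and *Gm16736*, against 2.99% of like clusters. These windows, like those for H/ACA letters below, are of the genome and can reach past the last read. In *Ptpn13* CTGA begins at base 100, while the cluster is 51 bases long.

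The shorter TGATG, a search made after the sequences had been seen, lay in the first 20 bases of 8 of the 54 (14.8%, 6.62 to 27.1%), against 6.12% of like clusters and 2.97% of all. In *Rian*, *Drosha*, *Lamb1*, *Tnpo2* and *Ptpn13* it begins at base 6 from the most used start, as the capitals of the printed lines show. Base 6 was its place in 2.72% of like clusters and in 0.381% of all clusters. In annotated C/D snoRNA genes TGATG lay in the first 20 bases for 87.3%, with its first letter at bases 4 to 8 in 234 of 346 but at base 6 in only 9 (2.60%). Of the 54 clusters 6 had it at bases 4 to 8. A match in letters is a description of the sequence and not a sign of a box in use.

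The letters of H/ACA snoRNAs were less telling. ANANNA from 50 to 90 bases and ACA from 100 to 160 bases after the start were found in 33.3% of the 54 clusters, 31.8% of like clusters, 30.8% of all clusters and 72.3% of 1031 annotated H/ACA snoRNA genes. By sequence, 3 intronic clusters matched an annotated small RNA elsewhere over 50 bases or more. The one in intron 5 of *Ipo11*, a nuclear import gene, matched SNORA48 at 90.2% identity over 82 bases and had 15 ESC reads and 0 NPC reads. With 0 taken as 3 reads the ESC/NPC ratio is 5.15, and the lower limit of its counting interval is 3.69. Those in *Mrps28* (5 and 16 reads) and *St3gal2* (6 and 9) consisted mainly of copied sequence.

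Between the libraries the intronic clusters were balanced, unlike the clusters of the whole table. The median log2 NPC/ESC ratio, with 1 read added in each library, was -0.04 (-0.04 to 0.06), which is the value of equal counts, against 0.43 for all clusters and 0.44 for those over exons. More than 2-fold higher in NPCs were 741 clusters (20.6%) and in ESCs 709 (19.7%), beside the 29.3% and 10.7% of all clusters. This balance changes with the scaling and with the counting of repeated starts, and with each start counted once per library the numbers were 313 and 618. When median-of-ratios scaling replaced library totals, which shifts every log2 ratio by -0.44, the intronic shares became 13.4% higher in NPCs and 28.4% in ESCs, and those of all clusters 18.3% and 18.1%. On that scale the positive medians given here for translation factor hosts, for clusters at splice sites and for copied sequence fall below 0, and the order of intronic clusters against all clusters stays. Among the 260 clusters with 50 or more reads, 44 (16.9%) were higher in NPCs and 45 (17.3%) in ESCs, against 25.8% and 9.17% of all clusters that deep.

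The kinds were not alike in this. Clusters of copied sequence had a median of 0.26 (0.11 to 0.44), with 156 (24.6%) higher in NPCs and 87 (13.7%) higher in ESCs, which is nearer to the whole table. Single-copy clusters had a median of -0.04, with 503 (19.7%) and 531 (20.8%). Counting error alone blurs most of these calls, for the interval of the ratio lay wholly beyond 2-fold for 121 of the 3590 clusters toward NPCs and for 86 toward ESCs. Only 103 clusters had reads in just 1 library.

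**Figure D4:**
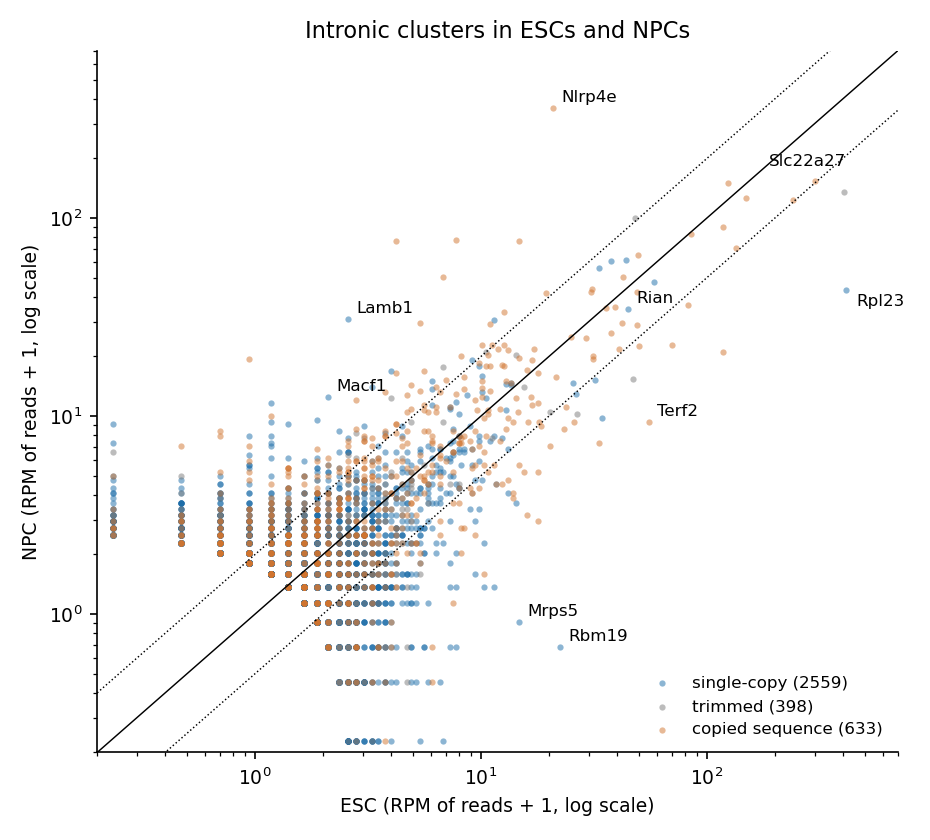
Scaled reads (RPM, the reads of a cluster divided by library size) of each of the 3590 intronic clusters in ESCs and in NPCs, on log axes and with 1 read added in each library. The solid line marks equal values and the dotted lines 2-fold, and named points such as *Rpl23* with 1763 against 190 reads and *Lamb1* with 10 against 135 lie far outside them.

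Single-copy clusters were compared with the exons of their own hosts, a difference from which library size cancels out. The log2 ratio of the cluster lay below that of the host exons for 1638 of 2559 (64.0%), with a median difference of -0.44 (-0.52 to -0.39). This interval takes the clusters as independent, though they lay in 1060 hosts and clusters of 1 host share its exon value. The difference was smaller in deeper clusters. With 30 or more reads (230 clusters) 57.8% lay below, with a median of -0.18 (-0.43 to -0.04). With 50 or more reads (89 clusters) the median was -0.23 (-0.52 to 0.10). Hosts more than 2-fold higher in NPCs had 658 of the 2559 clusters, of which 211 were higher in NPCs and 78 higher in ESCs. Hosts more than 2-fold higher in ESCs had 158, of which 15 were higher in NPCs and 68 in ESCs, and the 1743 clusters in other hosts were split into 277 and 385. Across clusters, the ratios of cluster and host had a Spearman correlation of 0.32 and a Pearson correlation of 0.41, with clusters of 1 host sharing its value.

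Several marker genes were hosts, and their clusters stood on the same side as their exons. *Lama1*, the laminin alpha 1 chain gene, had 19 clusters with 13 ESC and 253 NPC reads, all 19 more than 2-fold higher in NPCs, an NPC/ESC ratio of 18.9 (10.9 to 35.98), beside exon reads of 427 and 10346. *Lamb1* had 12 clusters with 17 and 289 reads (ratio 16.5, 10.1 to 28.7), and the collagen IV gene *Col4a1* had 7 with 1 and 108 reads. *Dab2* and *Gata4* had a cluster each with 10 and 11 NPC reads and 0 ESC reads, and a count of 0 allows up to 3 reads. The clusters named here reached the minimum of 10 pooled reads mainly through NPC reads. Their side was therefore largely fixed by the choice of clusters and is no support for the exon ratios. These are the endoderm markers noted above, and 42 of the 3590 clusters lay in genes of that list.

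Pluripotency genes went the other way. *Zfp42*, also called *Rex1*, had 7 clusters with 74 ESC and 17 NPC reads, 6 of them more than 2-fold higher in ESCs. *Klf4* had 3 clusters with 39 and 10 reads, all more than 2-fold higher in ESCs, although its exons had 226 and 206 reads. *Esrrb*, an orphan nuclear receptor gene, had 2 clusters with 20 and 2 reads. Clusters of these genes reached the minimum mainly through ESC reads, so their side too was largely fixed by the choice. No cluster lay in a gene of the neural progenitor or fibroblast list.

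Clusters over annotated snoRNAs are left out by the rule, so that for snoRNA hosts the rest of the intron was counted, and the wider list of such hosts had the 332 clusters given above. The snoRNA host *Gas5* had 0 clusters. Of the hosts of introns of the minor spliceosome, *Drap1*, *Gars*, *Psmc4* and *Phb2* had 0, and *Eed*, a Polycomb gene, had 1 cluster with 3 ESC and 7 NPC reads, 82 bases before an exon. Genes named *Snhg*, whose introns are known for snoRNAs and whose exons are mostly non-coding, had 11 clusters in 5 hosts. *Snhg4* had 7 of these, each with 12 to 33 reads, *Snhg7* had 1 with 11 and 20 reads, *Snhg12* 1 with 10 and 7, *Snhg11* 1 with 8 and 2, and *Snhg5* 1 with 9 and 13.

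Clusters of copied sequence were set beside the gene they match as well as the host. Of the 633, 538 matched a spliced transcript of 1 or more of 239 other genes at 90% identity or more over 50 bases or more, with a median identity of 100% over a median of 111 bases. Of their 280 hosts, 96 had fewer than 10 exon reads, against 9 of the 1060 hosts of single-copy clusters. Among the 237 with a match and 30 or more reads, the log2 ratio of the cluster had a Spearman correlation across clusters of 0.78 with that of the matching gene and of -0.03 with that of the host, and the median absolute difference was 0.42 from the matching gene and 1.06 from the host. Cluster and matching gene share sequence, and 1 placement was kept for a read that fits both, so their reads are not separate measurements.

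**Figure D5:**
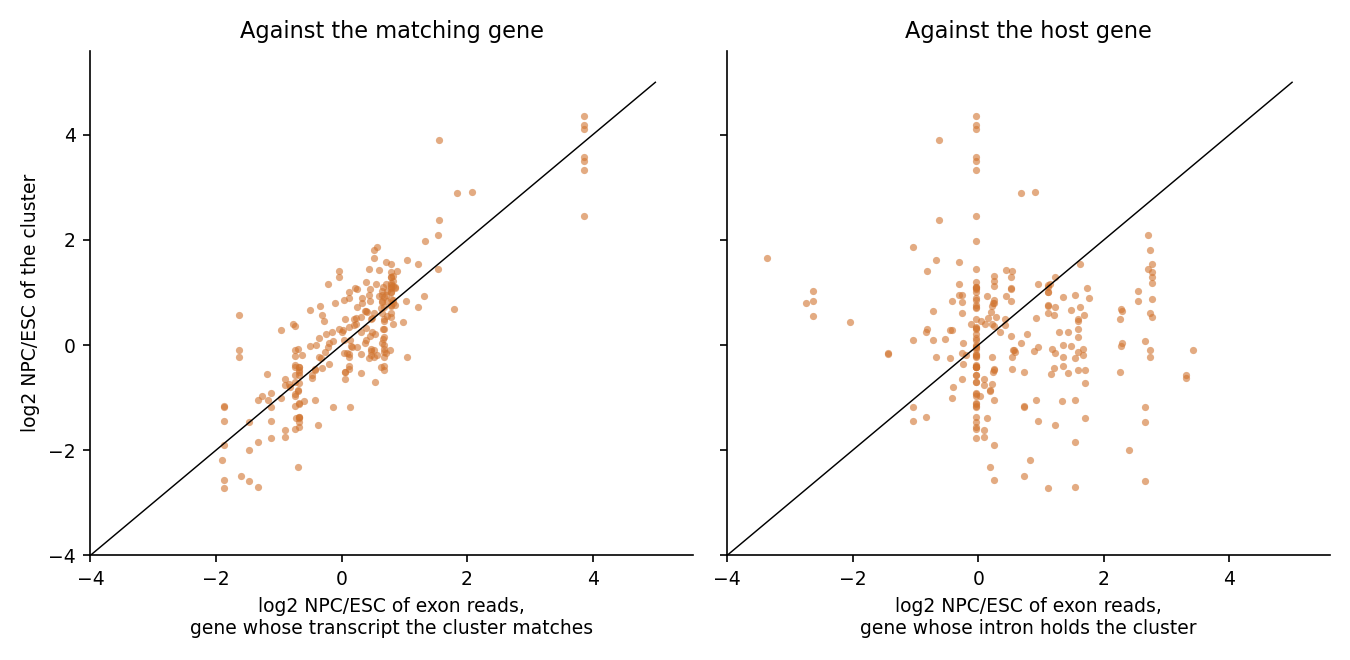
Log2 ratio of NPC to ESC of 237 clusters of copied sequence with 30 or more reads, against the same ratio over the exons of the gene whose transcript they match (left) and of the gene whose intron holds them (right), with 1 read added in each library. The points lie along the line of equal values on the left and show no such order on the right.

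*Krt8*, a keratin gene of simple epithelia, gave the clearest case. An intron of *Nlrp4e* on chromosome 7 held 7 clusters that match its mRNA, with 166 ESC and 2541 NPC reads, a ratio of 14.9 (12.7 to 17.5). The exons of *Krt8* itself had 156 and 2361 reads, a ratio of 14.7, and the exons of *Nlrp4e* had 0 reads in both libraries. Most reads of the block fit more than 1 place, but not all, since 11 ESC and 194 NPC reads of its largest cluster had 48 bases that occur in mm9 at this place alone. As reads were placed with up to 2 mismatches, even these could come from *Krt8*, which was not tested.

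*Pou5f1*, which encodes the pluripotency factor Oct4, was matched by 2 clusters in intron 11 of *Rfwd2* with 149 ESC and 35 NPC reads, an ESC/NPC ratio of 4.39 (3.02 to 6.53) beside 3.73 over the exons of *Pou5f1*, and 0 of the reads were of a sequence found once. Copies of *Rps2*, a ribosomal protein gene, made up 9 clusters in 5 hosts with 442 and 109 reads (ratio 4.18, 3.38 to 5.20) beside a ratio of 3.65 over its exons, and the one in *Terf2* alone had 235 and 40. *Gapdh*, of glycolysis, had 4 clusters with 699 and 314 reads (ratio 2.29) beside a ratio of 2.18. For *Eef1a1*, 12 clusters in 3 hosts, among them the printed one, held 2693 and 1634 reads, and the largest of them, in *Slc22a27*, had 1063 ESC and 547 NPC reads of unique sequence.

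Not every copy followed its gene. The clusters in *Mtap7* that match *Rpl32* had 575 and 688 reads while the exons of that ribosomal protein gene had 3292 and 1733. Those matching *Actg1*, a cytoplasmic actin gene, had 63 and 366 reads, an NPC/ESC ratio of 5.64 (4.31 to 7.49) against 2.94 (2.54 to 3.41) over its exons. The genes with the most matching clusters were *Ptp4a1*, a phosphatase gene, with 22 clusters in 3 hosts and 352 and 775 reads, and *Fam60a*, with 18 clusters in 2 hosts and 685 and 370 reads. Other large clusters of this kind matched *Rps19-ps1* (in *Tecpr2*, 1025 and 542 reads), *Hsp90aa1* (in *Ssh2*, 637 and 557), *Rps7* (in *Rpl7a-ps12*, 364 and 364) and *Rpl29* (in *Ispd*, 75 and 12). A further 95 clusters of copied sequence matched no spliced transcript, among them 1 in intron 1 of *Grik4* with 208 and 186 reads, of which 98.7% began at 1 base.

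Trimmed clusters were read last because the deposited intervals do not show the whole read. In the last intron of *Taf1d*, a gene of the RNA polymerase I machinery, 3 clusters of 19 or 20 bases had 60, 44 and 65 reads in ESCs and 89, 92 and 61 in NPCs, each within 390 bases of an annotated snoRNA. Over all 398 trimmed clusters 82 (20.6%) were more than 2-fold higher in NPCs and 91 (22.9%) in ESCs.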

How the data were processed

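NPA RNA of ESCs and NPCs was sequenced on SOLiD (2 µg of input RNA, 150 to 250 bp fragments, 15 PCR cycles). Per the authors, the 50 nt reads were mapped with Bowtie to mm9 (version not given in the sources used here), 1 placement was kept for a read with several, and mitochondrial, ribosomal and repeat reads were removed. What they deposited is the position, strand and 48 nt of sequence of each read. The deposited files hold read positions and no counts, so reads were counted here, as pieces where an interval is shorter than 48 bases, 3.77% in ESCs and 4.23% in NPCs. Repeat removal leaves holes in introns, so a cluster can end at a repeat. Of the 48-base reads 81.7% and 86.9% occur once in mm9, looked up on both strands. A single read equals 0.234 RPM (ESCs) or 0.227 RPM (NPCs), and 3 reads, the limit that a count of 0 allows, 0.702 and 0.682.

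Introns lie between the exons of GENCODE M1 genes on NCBI build 37 (mm9), with 37273 genes. Gene counts are reads on the gene's strand that overlap its exons by 1 base or more. Copied sequence was sought with BLAST 2.17.0 (word size 11) against 32064 genes' spliced transcripts, at 90% identity or more over 50 bases or more. RefSeq starts, hairpins and markers were looked up by position, sequence or symbol. Log2 ratios add 1 read in each library, ratios that are not in log2 add none, and both are scaled by library totals. The intervals of ratios are conditional binomial, those of shares Clopper-Pearson and those of medians binomial. Intervals of shares of clusters and of medians take clusters as independent, although clusters of 1 host may come from the same RNA. With 1 library per group no test was made. Clusters named are the 12 with the most reads, the 6 highest ratios in each direction at 50 or more reads, the 4 longest, the 5 hosts with the most clusters, small RNA matches and fixed host lists, of which some items are not reported here. The same rankings among single-copy clusters, the clusters with a shared start, the introns with the most clusters, marker hosts and copied genes were chosen once their values had been seen. The members, lists and kinds were chosen with earlier results of these data known. The counting was tested on simulated data. Python 3.11.15, NumPy 2.4.6, pandas 2.3.3, SciPy 1.17.1, pysam 0.24.0 and matplotlib 3.10.9 were used. Alternatives changed the read minimum, the joining gap, the exons, uniqueness, duplicate starts, scaling, the added read and the limits on starts and splice sites.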

Additional observations from a re-analysis of the deposited data

How the results depend on the processing

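Of 62 alternative values 39 moved and 23 did not by the limits used, which were 1.5 times for a number of clusters and the interval for other values, and there was no test. The reported values are 3590 clusters, 1.14% of ESC and 1.12% of NPC reads, a median length of 114.5 bases, 30.3% with 50% or more of the reads at 1 start, 5.46% next to a splice site, a median log2 ratio of -0.04 and 741 and 709 clusters beyond 2-fold toward NPCs and ESCs. With 20 or more reads these became 965, 0.771%, 0.722%, 136, 27.0%, 4.46%, and 179 and 159. Joining gaps of up to 40 bases gave 1.27% in both libraries, 201 bases, 20.8% at 1 start and 3.47% at splice sites. Reads found once in mm9 gave 0.791%, 0.710%, 125 bases, 24.96%, 7.01%, a median of -0.13 and 473 toward NPCs against 530 toward ESCs. Counting each start once per library gave 1.28%, 1.13%, 11.3% with such a start, a median of -0.27 and 313 toward NPCs against 618 toward ESCs. Counting only protein-coding exons as exons raised the clusters to 6775. Scaling by the median of ratios, an NPC over ESC factor of 1.4 from 95083 clusters, shifts all log2 ratios by -0.44 and gave a median of -0.49 and 481 toward NPCs against 1020 toward ESCs, while the median of all clusters became -0.01, and scaling by reads outside the 10 largest clusters gave -0.15. Intervals of 48 bases alone gave 27.6% at 1 start. A limit of 1 in 3 or 3 in 4 reads at 1 start in place of 50% gave 51.2% and 11.8%, and a gap of 20 or 100 bases to the exon gave 2.45% and 11.1%. Single-copy clusters alone, chosen after seeing the data, held 0.572% and 0.540% of reads, with a median length of 124 bases, 23.99% at 1 start and 7.07% at splice sites. No paired analysis was possible because each group has 1 library. Most clusters rest on few reads, with a median of 14, so single ratios are wide, and with 1 library per cell type nothing here separates a difference between the cell types from one between preparations. The causes of the moves were not tested.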
